A study of Fragaria vesca with 24 samples.

Results

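In this series, 63 genes were detected in every ‘Alta’ library and were at or near 0 counts in every ‘NCGR1363’ library. Each had more than 3 counts in all 12 ‘Alta’ libraries and 3 or fewer counts in all 12 ‘NCGR1363’ libraries. They make up 63 of the 34006 genes of the deposited table, and 0.395% of the 15934 genes that exceeded 3 counts in each ‘Alta’ library. The genes were chosen by these counts, so the contrast between the genotypes is described below and was not tested. The tests compare tissues and times within ‘Alta’. The choice did not compare these groups, but by asking for more than 3 counts in every ‘Alta’ library it left out weak genes that were near 0 in a tissue or at a time. Shares of genes called are therefore also given for the 15871 other genes that exceeded 3 counts in every ‘Alta’ library. This was done for crown against leaf at 0 h and for cold treatment. The other comparisons are set beside all genes tested only.

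‘Alta’ is a freezing-tolerant accession of the woodland strawberry Fragaria vesca from the north of Norway, and ‘NCGR1363’ is a susceptible accession from South America. Plants of both were multiplied as clones from runners, so each genotype is represented by a single clone, and were raised for 5 weeks at 20 °C with an 18 h photoperiod. Crowns and leaves were taken after 42 d at 2 °C and from untreated plants at 0 h. The study describes its acclimation at this temperature with a 12 h photoperiod. The 42 d plants thus differed from the 0 h plants in temperature, day length and age, which cannot be told apart. Cold treatment and cold response below stand for these together. The groups were ‘Alta’ crown 42 d, ‘Alta’ crown 0 h, ‘Alta’ leaf 42 d and ‘Alta’ leaf 0 h, and the same 4 groups of ‘NCGR1363’, with 3 libraries in each. Library totals ranged from 12818719 to 18487934 counts.

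The crown of a strawberry plant is a short compressed stem that carries the leaves and the overwintering buds, and its survival decides whether the plant regrows after winter. During weeks at low positive temperature, plants of temperate species acclimate, and many transcripts change in level in both crown and leaf. Accessions of 1 plant species can differ in the genes they carry, in the genes they transcribe and in how closely their transcripts match a reference sequence. The table counts reads assigned to predicted mRNAs of a single reference annotation, and these 3 kinds of difference cannot be told apart in it. Whether ‘NCGR1363’ carries the 63 genes was not tested.

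The library labelled ‘Alta’ crown 42 d replicate 3 stood apart from its group. Across 19052 genes, its log2 values correlated at 0.638 and 0.657 with the other libraries of its group, but at 0.971 to 0.984 with the ‘Alta’ leaf 0 h libraries. All other pairs within the 4 ‘Alta’ groups correlated at 0.968 or more. The summed level of 4 genes for chloroplast enzymes, chosen as leaf genes, was 1351 CPM (read counts scaled to library size) in this library, against 56.3 and 54.8 CPM in the other ‘Alta’ crown 42 d libraries and 1210 to 1284 CPM in ‘Alta’ leaves at 0 h. These values go against the label of that library, which was kept. Each test that includes it is given with and without it, and levels and shares that include it are given without it where they summarise the 63 genes.

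In ‘NCGR1363’, 26 of the 63 genes had 0 counts in all 12 libraries, 20 had 1 to 3 counts in total and 17 had more than 3 in total. Over all genes and libraries, 654 of 756 ‘NCGR1363’ values (86.5%) were 0, 57 were 1, 32 were 2 and 13 were 3. The counts of the 63 genes summed to 66575 in ‘Alta’ and to 160 in ‘NCGR1363’. The few ‘NCGR1363’ counts were spread over the groups, with 28 in crowns at 42 d, 69 in crowns at 0 h, 45 in leaves at 42 d and 18 in leaves at 0 h. The library with most of them, ‘NCGR1363’ crown 0 h replicate 2, held 33.

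For the 37 genes with at least 1 ‘NCGR1363’ count, the ratio of depth-scaled summed counts, ‘Alta’ over ‘NCGR1363’, ranged from 13.1 to 2456 with a median of 297. FvH4_2g00550 had 13870 counts in ‘Alta’ against 8 in ‘NCGR1363’, a ratio of 1994 (95% exact interval 1012 to 4620). FvH4_6g00280 had 8192 counts in ‘Alta’ against 4 in ‘NCGR1363’, a ratio of 2356 (920 to 8648). At the low end, FvH4_1g29809 had 160 counts in ‘Alta’ against 14 in ‘NCGR1363’, a ratio of 13.1 (7.61 to 24.6). This gene had 3 counts in each ‘NCGR1363’ crown 0 h library, so a low level in that group was repeated across its replicates. Where ‘NCGR1363’ was at 0 throughout, the bound was taken against 3 counts over the 12 libraries. These 26 genes were at least 42.6-fold to at least 730-fold higher in ‘Alta’, with FvH4_7g17700 (1904 ‘Alta’ counts) at the upper end and FvH4_3g07022 (111 ‘Alta’ counts) at the lower. Intervals and bounds cover counting error of the pooled counts only. They leave out variation between libraries and the choice of the genes by these same counts, so they are no test of the genotypes. With counts scaled by library totals, the median ratio of the 37 genes was 299 with the third ‘Alta’ crown 42 d library left out and 284 with it.

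**Figure D1:**
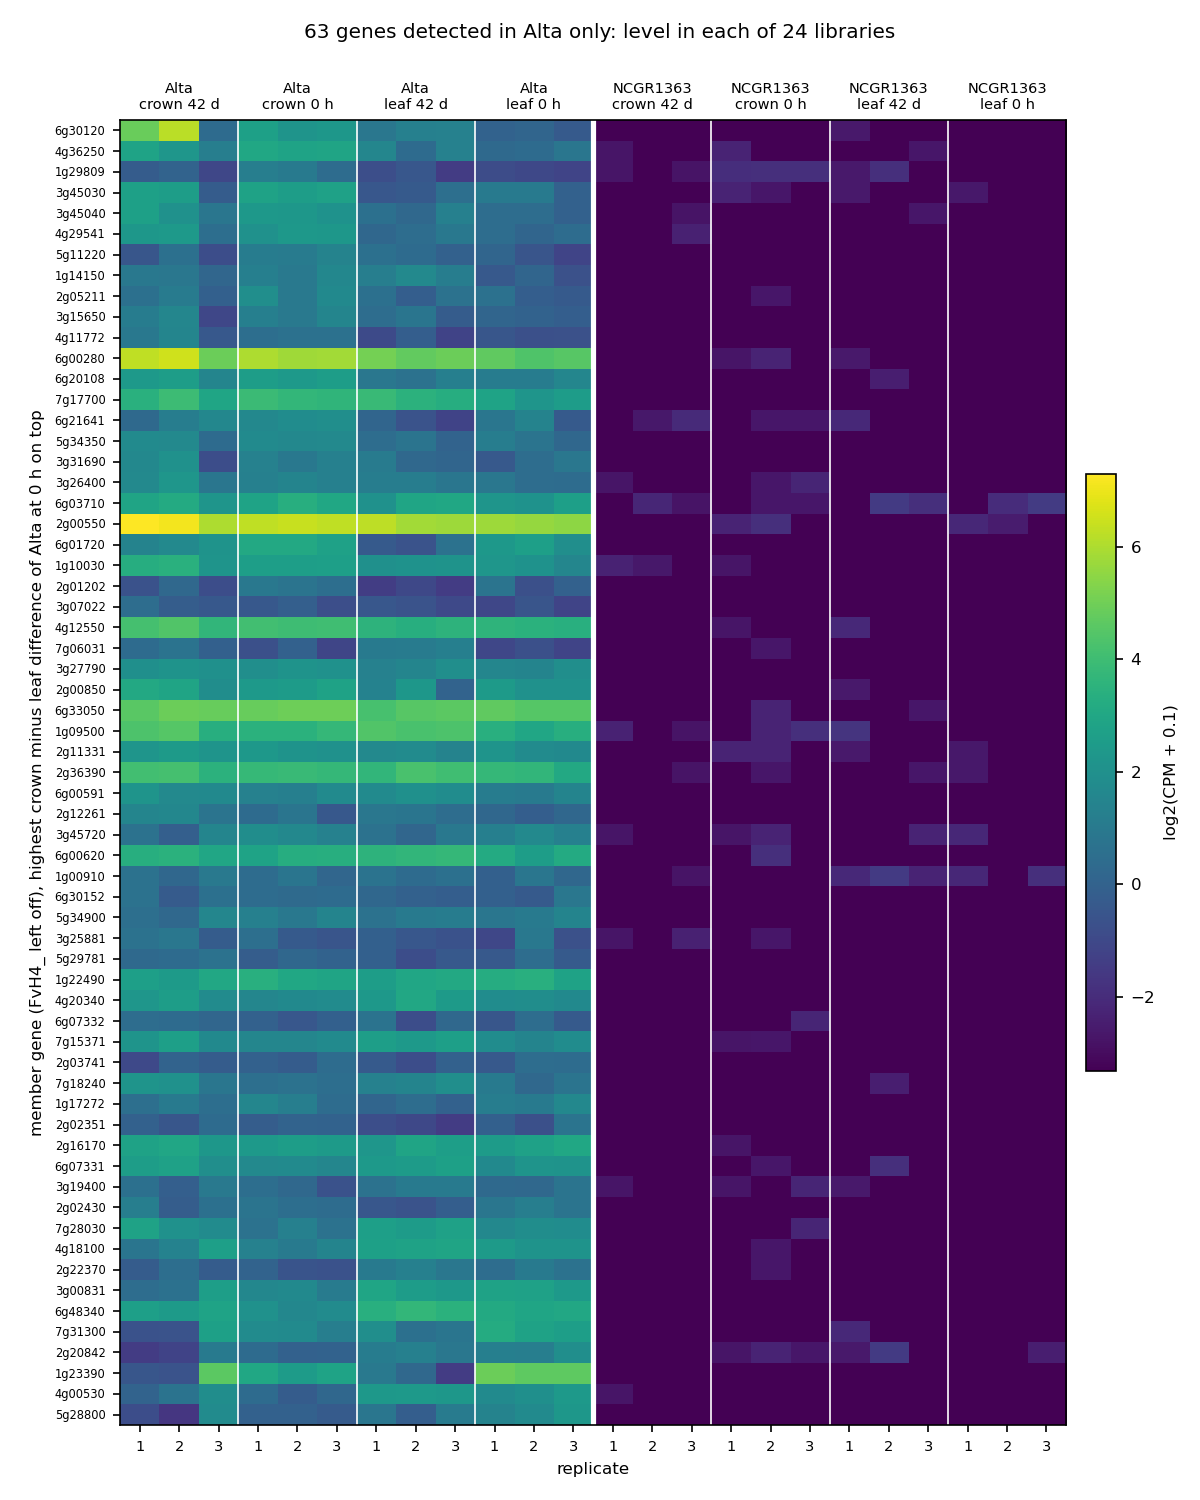
Level of the 63 genes (rows, ordered by the crown minus leaf difference of ‘Alta’ at 0 h) in each of the 24 libraries (columns, by group and replicate), as log2(CPM + 0.1) on the colour scale. The 12 ‘Alta’ columns on the left are filled in every row, 654 of the 756 ‘NCGR1363’ cells on the right are at 0 counts, and the third ‘Alta’ crown 42 d column differs from the 2 beside it in many rows.

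Some genes only just met or just missed the limits. Just inside, FvH4_1g23390 had 4 to 394 counts in the ‘Alta’ libraries, FvH4_3g07022 had 4 to 19 counts there, and both had 0 counts in ‘NCGR1363’. FvH4_2g00550 had 488 to 2480 counts in ‘Alta’ libraries and at most 3 in an ‘NCGR1363’ library. Just outside, FvH4_2g00540 had 246 to 1206 counts in ‘Alta’ libraries and 4 counts in a single ‘NCGR1363’ library. FvH4_6g32350 had 3 to 36 counts in ‘Alta’ libraries, 1 of them at 3, and 0 counts in ‘NCGR1363’. In all, 10 genes missed the limits through 1 ‘Alta’ library and 7 through 1 ‘NCGR1363’ library. With 0 counts required in ‘NCGR1363’, 26 genes remained of the 63, and with a limit of 10 counts on both sides 43 genes were found, 33 of them among the 63.

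The converse choice, with more than 3 counts in each ‘NCGR1363’ library and 3 or fewer in each ‘Alta’ library, found 125 genes, or 0.768% of the 16284 genes detected in every ‘NCGR1363’ library. Genes above the limit in 1 accession alone thus occurred in both directions, and fewer were of ‘Alta’.

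Most of the 63 genes had low levels in ‘Alta’. The mean over the 12 ‘Alta’ libraries had a median over the genes of 2.88 CPM (2.98 CPM without the third crown 42 d library) and ranged from 0.636 to 77.6 CPM. Per kilobase of coding sequence, the median level was 2.65 CPM per kb, against 21.3 CPM per kb for the other 15871 genes detected in every ‘Alta’ library, and without that library it was 2.64 against 21.4 CPM per kb. The limits set no minimum ratio, so a gene with few counts in ‘Alta’ met the ‘NCGR1363’ limit at a smaller ratio than a gene with many. Altogether 26 genes averaged under 2 CPM, 22 averaged 2 to 5 CPM and 15 averaged 5 CPM or more, which became 26, 21 and 16 without that library. The 3 genes with the most counts held 39.8% of the ‘Alta’ counts of the 63, and the 10 with the most held 62.1% (40.0% and 62.3% without that library).

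Per kilobase of coding sequence, FvH4_6g00280 stood far above the rest at 198 CPM per kb (204 without that library), followed by FvH4_6g33050 at 21.4 CPM per kb, FvH4_1g22490 at 20.0 CPM per kb and FvH4_2g00550 at 19.8 CPM per kb. FvH4_6g00280 had 78.0, 92.8 and 30.0 CPM in ‘Alta’ crowns at 42 d, 62.7, 54.4 and 56.0 CPM in crowns at 0 h, 33.6, 26.9 and 30.0 CPM in leaves at 42 d and 25.9, 20.7 and 23.3 CPM in leaves at 0 h. Apart from the third crown 42 d library, all crown values lay above all leaf values. FvH4_2g00550 had 156, 139 and 63.5 CPM in ‘Alta’ crowns at 42 d, 78.7, 83.8 and 77.6 CPM in crowns at 0 h, 76.4, 56.7 and 52.8 CPM in leaves at 42 d and 53.5, 48.8 and 45.3 CPM in leaves at 0 h. Its first pair of crown 42 d libraries was the highest of the 12, and the third lay within the range of the leaves. FvH4_6g33050 was the most even of these, between 18.4 and 30.6 CPM in all 12 ‘Alta’ libraries. FvH4_2g36390 and FvH4_4g12550 also ranked among the 10 highest mean CPM, with 8.29 to 18.9 CPM and 10.0 to 21.2 CPM over the 12 ‘Alta’ libraries. The sources used here give no names for these genes, so they are listed by identifier.

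Each gene was assigned to the ‘Alta’ group with its highest mean. With the third crown 42 d library left out, 26 genes were highest in crowns at 42 d, 15 in crowns at 0 h, 12 in leaves at 42 d and 10 in leaves at 0 h. With all 12 libraries, these counts were 19, 19, 14 and 11. The lowest mean, in the same order of groups, gave 10, 11, 18 and 24 genes without that library. With all 12 it gave 3, 14, 22 and 24. Without that library the crown 42 d mean rested on fewer libraries than the others. Other genes were not counted in this way. The summed level of the 63 genes was 526, 589 and 330 CPM in ‘Alta’ crowns at 42 d, 407, 397 and 391 CPM in crowns at 0 h, 338, 325 and 321 CPM in leaves at 42 d and 324, 296 and 293 CPM in leaves at 0 h. Crown sums therefore exceeded leaf sums in every library apart from the third crown 42 d library. In ‘NCGR1363’ libraries the same sum was 0.233 to 1.83 CPM.

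**Figure D2:**
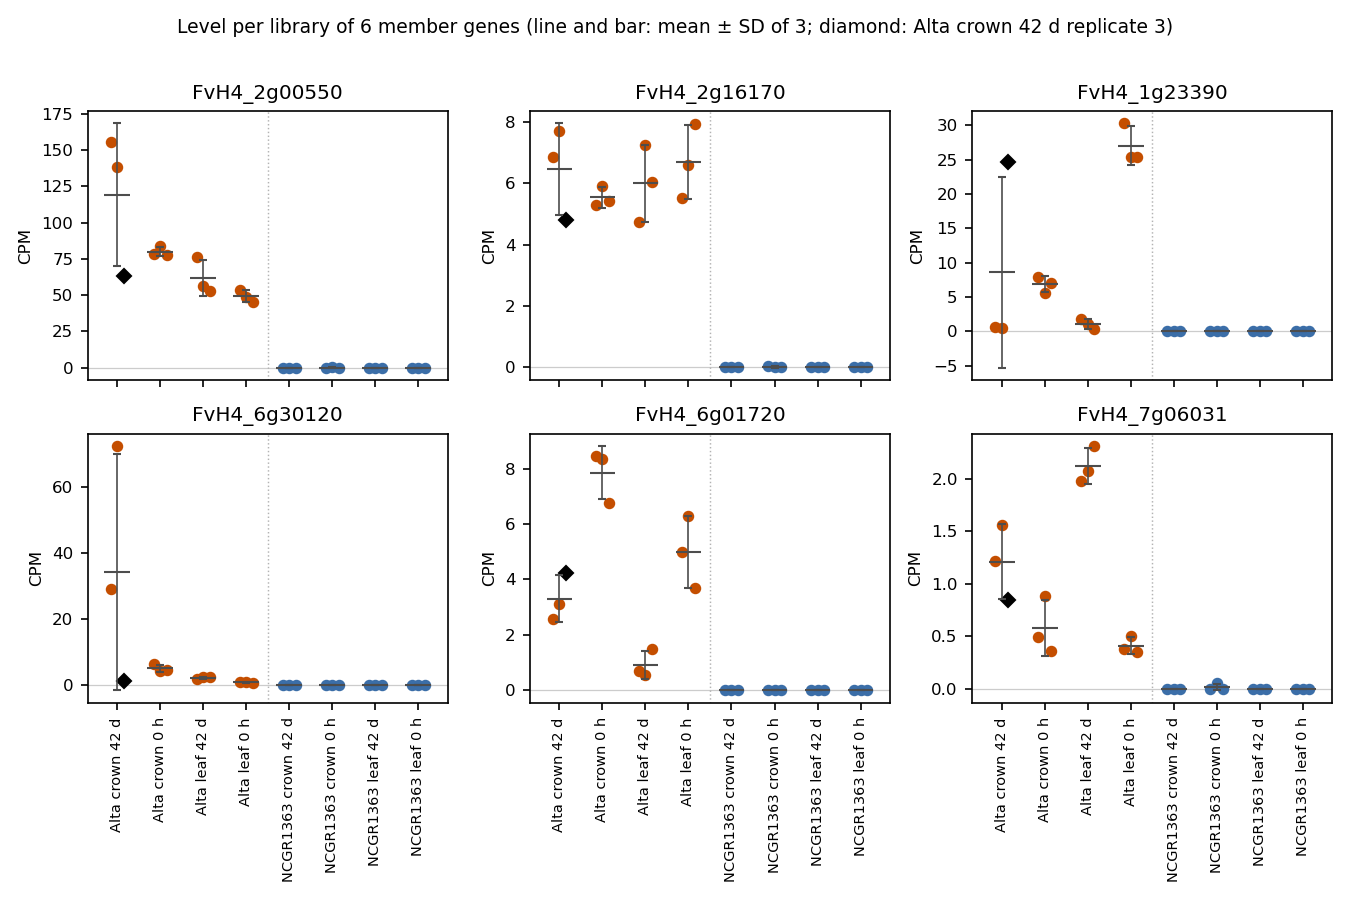
CPM of 6 of the genes in each library (points), by genotype, tissue and time, with the mean and SD of the 3 libraries of each group as a line and bar and the library labelled ‘Alta’ crown 42 d replicate 3 as a diamond. All ‘NCGR1363’ points lie at or near 0, and FvH4_1g23390 has 24.7 CPM at the diamond against 0.611 and 0.559 CPM in the other libraries of that group.

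Crowns and leaves of untreated ‘Alta’ differed for a large part of the genes. At 0 h, 33 of the 63 genes (52.4%) passed the test between crown and leaf (edgeR quasi-likelihood test, false discovery rate (FDR) of at most 0.05 over all genes tested), 23 of them higher in crowns and 10 lower. Of all 19310 genes tested, 73.1% passed, with 37.1% higher and 36.0% lower in crowns, and of the 15868 other genes tested that exceeded 3 counts in every ‘Alta’ library, 72.3% passed. A fit over all 12 ‘Alta’ libraries called 16 of the 63, beside 9118 of all 19892 genes tested in it. The median log2 difference was 0.19 over the 63 genes and 0.02 over all genes tested. In whole tissue, more cells of a type and more RNA per cell cannot be told apart.

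Genes higher in crowns at 0 h spanned log2 differences of 0.25 to 2.49, with a median of 1.23. FvH4_6g30120 differed most, with 6.44, 4.46 and 4.76 CPM in ‘Alta’ crowns against 0.922, 1.00 and 0.705 CPM in leaves (log2 difference 2.49, SE 0.28, edgeR FDR 3.82e-05). FvH4_4g36250 had 8.03, 7.16 and 7.17 CPM in crowns against 1.15, 1.20 and 1.68 CPM in leaves (log2 difference 2.39, SE 0.22, edgeR FDR 1.2e-05). In neither gene did crowns and leaves overlap at 0 h. FvH4_1g29809 had 2.20, 1.99 and 1.26 CPM in crowns against 0.461, 0.40 and 0.353 CPM in leaves (log2 difference 2.06, SE 0.39, edgeR FDR 0.00126). The adjacent genes FvH4_3g45030 and FvH4_3g45040 both had a log2 difference of 1.92 at 0 h (SE 0.28 and 0.25, edgeR FDR of 0.00023 and 0.0001). FvH4_6g33050 passed with the smallest difference, 0.25 (SE 0.09, edgeR FDR 0.0333), a call that was lost without any 1 of crown 0 h replicates 2 and 3 and leaf 0 h replicates 2 and 3.

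Genes lower in crowns at 0 h had log2 differences between -2.17 and -0.98. FvH4_5g28800 had 0.880, 0.880 and 0.723 CPM in ‘Alta’ crowns against 2.61, 3.30 and 4.76 CPM in leaves (log2 difference -2.17, SE 0.33, edgeR FDR 0.00029). FvH4_4g00530 had 1.21, 0.763 and 1.08 CPM in crowns against 3.30, 3.80 and 5.11 CPM in leaves (log2 difference -2.07, SE 0.30, edgeR FDR 0.00024). FvH4_1g23390 had 7.87, 5.63 and 7.10 CPM in crowns against 30.3, 25.4 and 25.4 CPM in leaves (log2 difference -2.05, SE 0.14, edgeR FDR 1.46e-06). Every leaf value was above every crown value in these genes. FvH4_2g20842 had a log2 difference of -1.53 at 0 h (SE 0.33, edgeR FDR 0.00254).

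After 42 d, the comparison of crown with leaf depended on the library that stood apart. With it, 0 of the 63 genes passed in edgeR, 12 had an unadjusted p under 0.05 and DESeq2 called 4. Of all 18756 genes tested, 1 passed in edgeR (0.00533%), 3396 had an unadjusted p under 0.05 and DESeq2 called 2227. Without it, 21 of the 63 (33.3%) passed, 14 higher in crowns and 7 lower, against a background of 44.8%, with 21.0% higher and 23.8% lower. Without that library, FvH4_6g30120 again differed most, at 29.3 and 72.4 CPM in crowns against 1.77, 2.39 and 2.44 CPM in leaves (log2 difference 4.53, SE 0.42, edgeR FDR 0.000267). The third crown 42 d library had 1.22 CPM of this gene, below all 3 leaf values at 42 d. FvH4_3g45030 (2.74), FvH4_4g11772 (2.14) and FvH4_4g29541 (1.85) had the next largest log2 differences among genes higher in crowns. FvH4_2g20842 (-2.74), FvH4_3g00831 (-2.15), FvH4_5g28800 (-2.12) and FvH4_7g31300 (-2.03) were lowest in crowns relative to leaves.

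The comparisons at 0 h and at 42 d share no libraries. With the third crown 42 d library left out, 20 genes were called at both times, which is 60.6% of the 33 called at 0 h and 95.2% of the 21 called at 42 d. All 20 had the same direction, 13 higher in crowns and 7 lower. Over all genes tested, those called at both times were 50.5% of the calls at 0 h and 85.7% of those at 42 d, and 93.8% of them had the same direction.

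**Figure D3:**
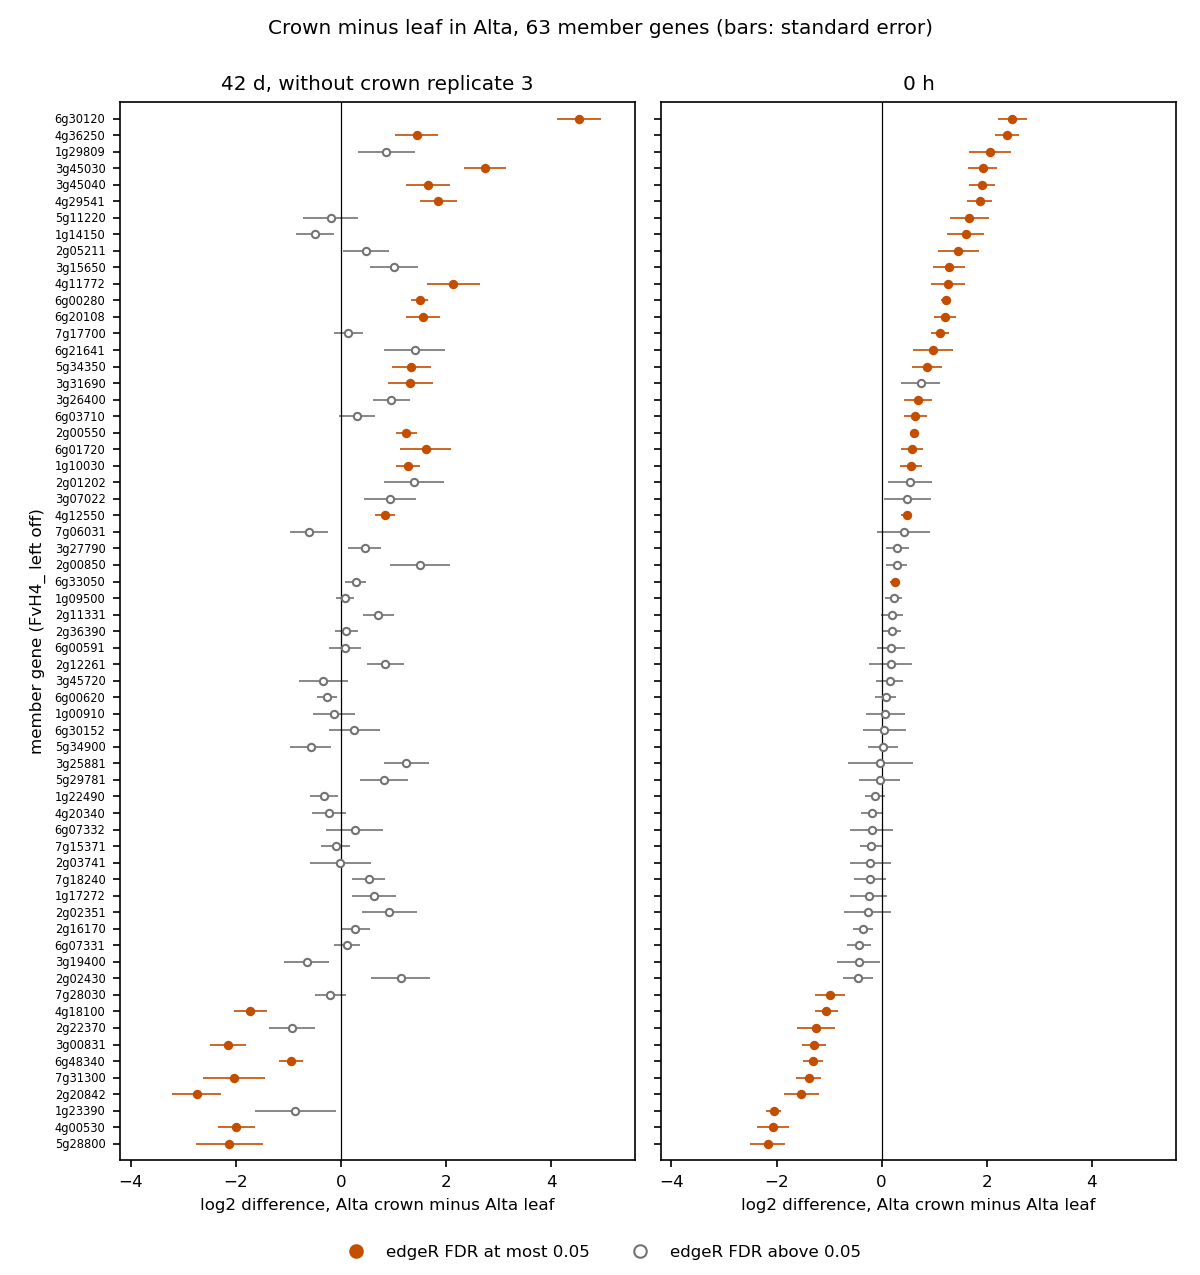
Log2 difference between ‘Alta’ crown and ‘Alta’ leaf for the 63 genes (rows), at 42 d without the third crown library (left) and at 0 h (right), with bars for the standard error and filled points for an edgeR FDR of at most 0.05. At 0 h 23 genes are called on the crown side and 10 on the leaf side, and 20 of the 33 are also called at 42 d on the same side.

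A minority of the 63 genes passed the test of 42 d against 0 h in ‘Alta’ leaves. After 42 d at 2 °C, 20 of the 61 genes tested in leaves (32.8%) passed, 13 higher and 7 lower than at 0 h, against a background of 55.8% (27.4% higher, 28.4% lower). Their median log2 difference was 0.23, and that of all 18435 genes tested was 0.00. FvH4_1g29809 and FvH4_4g11772 fell below the filter on low values in leaves. Called increases had log2 differences of 0.37 to 2.35, and called decreases of -4.65 to -1.18. Leaving out 1 leaf library at a time gave 12 to 17 calls, with 12 without leaf 0 h replicate 2 and 13 without leaf 0 h replicate 3. A fit over all 12 ‘Alta’ libraries gave 11, beside 4705 of all 19892 genes tested in it.

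Among the genes that rose in cold-treated leaves, FvH4_7g06031 had 1.98, 2.07 and 2.31 CPM at 42 d against 0.384, 0.50 and 0.353 CPM at 0 h (log2 difference 2.35, SE 0.37, edgeR FDR 0.00117). FvH4_1g14150 had 2.26, 3.10 and 2.17 CPM at 42 d against 0.691, 1.00 and 0.529 CPM at 0 h (log2 difference 1.76, SE 0.38, edgeR FDR 0.005). The times did not overlap in these genes. FvH4_6g30120 rose by a log2 difference of 1.32 in leaves (SE 0.34, edgeR FDR 0.0119). FvH4_1g09500 had 21.3, 19 and 19.9 CPM in leaves at 42 d against 10.4, 7.70 and 10.1 CPM at 0 h (log2 difference 1.09, SE 0.16, edgeR FDR 0.00076). FvH4_6g00280 passed at 0.37 (SE 0.14, edgeR FDR 0.048), a call that was lost without any 1 of leaf 42 d replicates 1 and 3 and leaf 0 h replicates 2 and 3. FvH4_6g00620 rose by 0.65 (SE 0.20, edgeR FDR 0.024), a call lost without leaf 0 h replicate 2. FvH4_7g18240 (0.93, edgeR FDR 0.0438) was likewise lost without any 1 of leaf 42 d replicates 2 and 3 and leaf 0 h replicates 2 and 3.

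The largest cold difference among the 63 genes was the fall of FvH4_1g23390. It had 1.84, 1.11 and 0.272 CPM in ‘Alta’ leaves at 42 d against 30.3, 25.4 and 25.4 CPM at 0 h (log2 difference -4.65, SE 0.44, edgeR FDR 9.57e-05). FvH4_6g01720 had 0.706, 0.557 and 1.49 CPM at 42 d against 4.99, 6.30 and 3.70 CPM at 0 h (log2 difference -2.41, SE 0.42, edgeR FDR 0.0018). FvH4_7g31300 had 3.74, 1.43 and 1.63 CPM at 42 d against 9.06, 6.90 and 6.17 CPM at 0 h (log2 difference -1.69, SE 0.39, edgeR FDR 0.00684). The times did not overlap for any of these. FvH4_2g01202 also fell, with a log2 difference of -1.66 (SE 0.57, edgeR FDR 0.0379), but its call was lost when any 1 of the leaf 42 d libraries was left out.

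In ‘Alta’ crowns, 0 of the 63 genes passed for cold treatment in edgeR with all 6 libraries, against a background of 7.67% (1.87% higher, 5.8% lower). At an unadjusted p under 0.05 there were 8 of the 63, DESeq2 called 7, and the lowest edgeR FDR among them was 0.0658, for FvH4_6g01720. Of all 19104 genes tested, 5178 had an unadjusted p under 0.05 and DESeq2 called 4442. Without the third 42 d library, 24 of the 63 (38.1%) passed, 14 higher and 10 lower at 42 d, against a background of 57.7% (27.7% higher, 30.0% lower). Of the 15860 other genes tested that exceeded 3 counts in every ‘Alta’ library, 57.0% passed without it. All crown values that follow are from this second fit.

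FvH4_6g30120 rose most in crowns, at 29.3 and 72.4 CPM at 42 d against 6.44, 4.46 and 4.76 CPM at 0 h (log2 difference 3.29, SE 0.39, edgeR FDR 0.000883). FvH4_7g18240 had 4.48 and 4.08 CPM at 42 d against 1.38, 1.53 and 1.32 CPM at 0 h (log2 difference 1.60, SE 0.22, edgeR FDR 0.00139). FvH4_7g28030 had the same log2 difference of 1.60 (SE 0.34, edgeR FDR 0.00809). FvH4_2g00550, with its large read counts, rose by a smaller 0.89 (SE 0.10, edgeR FDR 0.000739). FvH4_1g23390 fell most, at 0.611 and 0.559 CPM at 42 d against 7.87, 5.63 and 7.10 CPM at 0 h (log2 difference -3.54, SE 0.28, edgeR FDR 0.000224). With the third library, whose level was 24.7 CPM, the same difference was 0.34 and did not pass (edgeR FDR 0.901). FvH4_7g31300 (-2.41), FvH4_2g20842 (-1.68) and FvH4_6g01720 (-1.45) fell as well.

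The cold comparisons of leaves and of crowns share no libraries. Of the genes, 12 were called in both, which is 60.0% of the 20 called in leaves and 50.0% of the 24 called in crowns without the third 42 d library. All 12 moved the same way, 9 higher and 3 lower at 42 d. Over all genes tested, those called in both were 63.7% of the calls in leaves and 59.9% of those in crowns, and 88.5% of them moved the same way.

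**Figure D4:**
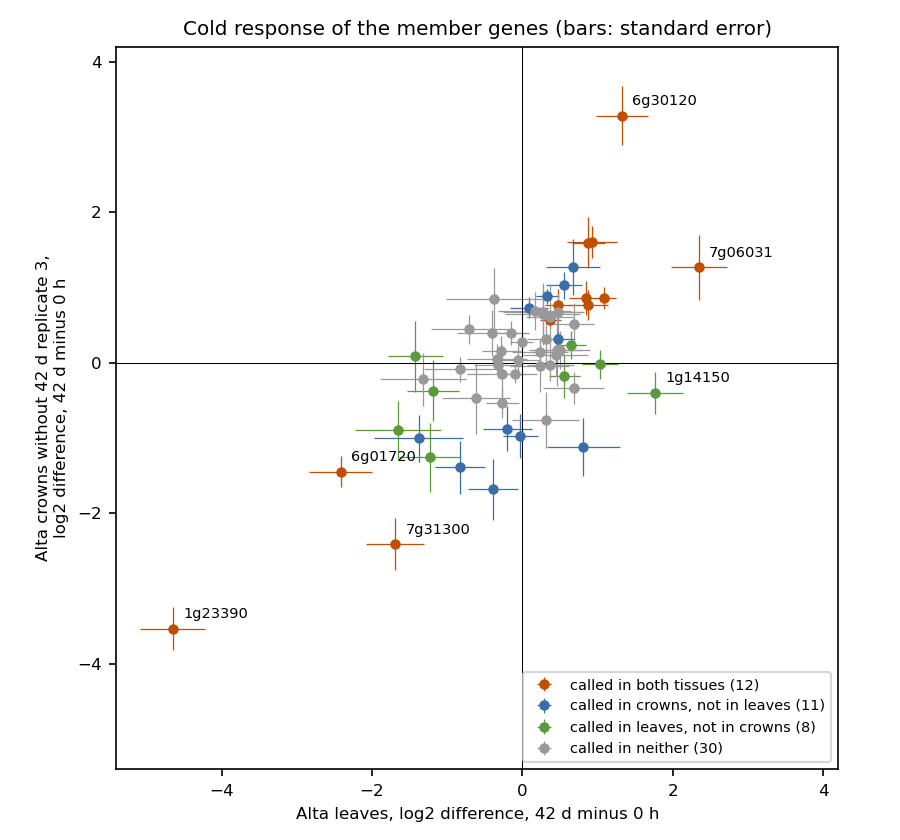
Log2 difference between 42 d and 0 h in ‘Alta’ leaves (horizontal axis) and in ‘Alta’ crowns without the third 42 d library (vertical axis) for the 61 genes tested in leaves, with bars for the standard error and colours for the edgeR calls. The 12 genes called in both tissues lie in the upper right or lower left part of the plot, with FvH4_1g23390 lowest in both and FvH4_6g30120 highest in crowns.

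A test of the difference between the cold responses, crown minus leaf, over all 12 ‘Alta’ libraries called 1 of the 63 genes, against a background of 10.3% (4.8% higher, 5.48% lower). FvH4_1g14150 had 1.83, 1.73 and 1.04 CPM in crowns at 42 d against 2.31, 1.88 and 2.89 CPM at 0 h, while it rose in leaves as given above. The difference of its responses was -2.34 on the log2 scale (SE 0.49, edgeR FDR 0.0196). Leaving out single libraries gave -2.62 to -2.16 and lost the call without each of crown 0 h replicates 1 and 3, leaf 42 d replicate 2 and leaf 0 h replicates 1 and 3. Without the third crown 42 d library, 4 of the 63 genes were called, against a background of 28.9%. FvH4_6g30120 responded more strongly in crowns (1.96, SE 0.56, edgeR FDR 0.0235). FvH4_1g14150 (-2.16), FvH4_5g11220 (-1.94) and FvH4_7g17700 (-1.05) lay on the leaf side. FvH4_7g17700 had 10.7 and 15.5 CPM in crowns at 42 d against 14.9, 13.1 and 12.1 CPM at 0 h, and 14.8, 11.2 and 9.64 CPM in leaves at 42 d against 6.99, 4.60 and 5.82 CPM at 0 h.

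At 0 h, genes with higher levels were called more often. There, crown against leaf was called for 38.5% of the genes under 2 CPM, 59.1% of those at 2 to 5 CPM and 66.7% of those at 5 CPM or more, against 35.4%, 59.3% and 75.5% of the other genes in the same ranges that exceeded 3 counts in every ‘Alta’ library. For cold treatment in leaves these shares were 25%, 31.8% and 46.7% of the 63 genes, against 16.4%, 36.4% and 59.6% of those other genes. Under 2 CPM the 63 genes were thus called slightly more often in both comparisons, and at 5 CPM or more less often, without a test of the difference. In all, 48 genes (76.2%) were called in at least 1 comparison and 15 in none, with or without the third crown 42 d library, and 91.0% of those other genes were called in at least 1. The highest ‘Alta’ library was 1.66 to 111 times the lowest, with a median over the 63 genes of 4.33 (4.07 without that library).

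Of the 63 genes, 2 lie in the interval of chromosome 2 that the study annotated around its freezing tolerance locus. They are 0.477% of the 419 interval genes detected in every ‘Alta’ library, beside 0.395% for the whole table. FvH4_2g16170 is the homolog the study names RDUF2, which in Arabidopsis is a RING-type E3 ubiquitin ligase linked to abscisic acid and drought responses. The gene is described in the study's annotation of the interval as a putative transcription factor of the C2H2 family. It had 6.85, 7.71 and 4.80 CPM in ‘Alta’ crowns at 42 d, 5.28, 5.93 and 5.42 CPM in crowns at 0 h, 4.73, 7.24 and 6.04 CPM in leaves at 42 d and 5.53, 6.60 and 7.94 CPM in leaves at 0 h. Its counts summed to 1052 over the 12 ‘Alta’ libraries against 1 over the 12 ‘NCGR1363’ libraries. Its 4 ‘Alta’ groups overlapped and it was called in no comparison, with the highest library 1.68 times the lowest. In a list of 14 stress candidates of the interval it was the only gene of the 63, and 11 of the 14 were detected in every ‘Alta’ library. The study reported this list for putative stress roles and for transcript differences between the accessions in these same libraries. The list is thus not independent of the choice of the 63, and the overlap is no separate result.

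FvH4_2g12261, the other gene of the interval, is described there as an uncharacterized protein. It had 2.78, 2.90 and 1.60 CPM in ‘Alta’ crowns at 42 d against 1.21, 1.64 and 0.662 CPM at 0 h, and 1.77, 1.67 and 1.29 CPM in leaves at 42 d against 1.08, 0.80 and 1.06 CPM at 0 h. Its rise in crowns passed without the third 42 d library (log2 difference 1.28, SE 0.37, edgeR FDR 0.0264). It was at least 104-fold higher in ‘Alta’ than in ‘NCGR1363’, where it had 0 counts. None of the 18 interval genes described as resistance-type and none of the 19 described as transposon-type were among the 63, but only 6 and 0 of them were detected in every ‘Alta’ library.

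The genes were spread over all 7 chromosomes, with places read from the order of the gene identifiers. Chromosomes 2 and 6 carried 13 each, chromosome 3 carried 11, chromosome 1 carried 8, chromosome 4 carried 7, chromosome 7 carried 6 and chromosome 5 carried 5. As a share of the genes detected in every ‘Alta’ library, these ranged from 0.221% on chromosome 5 to 0.539% on chromosome 2. The converse choice placed 23 genes on chromosome 5 and 13 on chromosome 2. With the identifier order of each chromosome cut into 5 equal parts, these parts held 19, 10, 16, 6 and 12 of the 63 genes, first to last. On chromosome 2, 7 of the 13 lay in the first 13.1% of the genes, where the converse choice had 4 of its 13. On chromosome 6, 7 of the 13 lay in the first 13.3%, where the converse choice had 7 of its 20. Each stretch was drawn to end at the 7th of the 63 genes on its chromosome. The 7 is thus fixed by the drawing, and the converse genes were counted in a stretch fitted to the 63. These shares are descriptions and were not tested against an even spread.

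**Figure D5:**
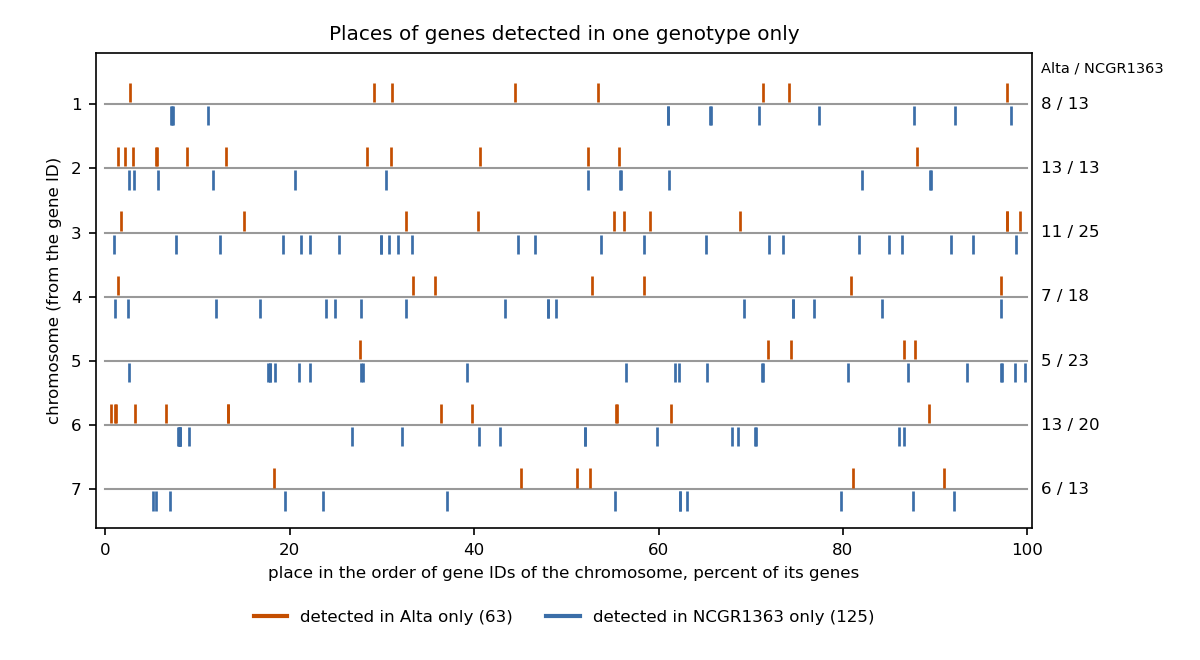
Places of the 63 genes detected in ‘Alta’ (above each line) and of the 125 genes of the converse choice (below each line) on the 7 chromosomes, as percent along the order of gene identifiers. The counts at the right run from 5 on chromosome 5 to 13 on chromosomes 2 and 6 for ‘Alta’. The left ends of chromosomes 2 and 6, each drawn to end at the 7th of the 63 genes there, hold 4 and 7 genes of the converse choice.

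Steps between the genes were counted without a comparison with an even spread, so they do not show whether the genes cluster. Counted over genes detected in at least 1 library, the median step between consecutive genes of the 63 on a chromosome was 249 genes and the longest 1381, and 5 of 56 steps were of 5 genes or fewer. The pairs that adjoined each other were FvH4_3g45030 with FvH4_3g45040 and FvH4_6g07331 with FvH4_6g07332, and no run of 3 occurred. FvH4_3g45030 had 6.38, 5.86 and 0.753 CPM in ‘Alta’ crowns at 42 d, 6.88, 5.93 and 6.74 CPM in crowns at 0 h, 0.636, 0.716 and 1.36 CPM in leaves at 42 d and 2.00, 2.00 and 0.882 CPM in leaves at 0 h. FvH4_3g45040 had 6.45, 4.02 and 1.69 CPM in crowns at 42 d, 4.95, 4.81 and 4.21 CPM in crowns at 0 h, 1.41, 1.11 and 2.38 CPM in leaves at 42 d and 1.31, 1.3 and 0.882 CPM in leaves at 0 h. Both genes of this pair were higher in crowns than in leaves at each time without the third crown 42 d library. In the other pair, FvH4_6g07331 rose in cold-treated crowns without that library (1.03, SE 0.18, edgeR FDR 0.00379), and FvH4_6g07332 was called in no comparison.

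The genes beside the 63 were detected in all libraries less often than detected genes at large, without a test of the difference. Of 126 neighbours, 68 (54.0%) had more than 3 counts in all 24 libraries, against 67.9% of all detected genes. Both neighbours did so for 22 of the genes, 1 neighbour for 24 and neither for 17. Another 12 neighbours exceeded 3 counts in no ‘NCGR1363’ library, 4 of them among the 63 themselves. Some were weak in ‘Alta’ as well, with FvH4_6g00270, FvH4_3g45051 and FvH4_3g26390 above 3 counts in only 2, 1 and 3 ‘Alta’ libraries. The share of all detected genes at this limit was not taken. Other neighbours went the opposite way. FvH4_2g20843, next to FvH4_2g20842, was a gene of the converse choice, above 3 counts in 12 ‘NCGR1363’ and 0 ‘Alta’ libraries. FvH4_2g22390, next to FvH4_2g22370, was above 3 counts in 12 ‘NCGR1363’ and 7 ‘Alta’ libraries. FvH4_1g23400, next to FvH4_1g23390, was above 3 counts in 12 ‘Alta’ libraries and 1 ‘NCGR1363’ library. FvH4_2g00540, next to FvH4_2g00550, missed the limit by 1 count in 1 library and averaged 38.7 CPM in ‘Alta’. It had 62.1, 67.4 and 25.8 CPM in ‘Alta’ crowns at 42 d, 35.0, 40.0 and 35.8 CPM in crowns at 0 h, 42.2, 40.5 and 45.4 CPM in leaves at 42 d and 22.4, 24.6 and 23.6 CPM in leaves at 0 h. As in FvH4_2g00550, its first pair of crown 42 d libraries was the highest of the 12. FvH4_3g07022 had a neighbour above 3 counts in no ‘NCGR1363’ library on both sides. These were FvH4_3g07020 and FvH4_3g07041, with median ‘Alta’ counts of 7.5 and 36.5.

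The gene models of the 63 differed from those of other genes detected in every ‘Alta’ library. A single isoform was annotated for 48 (76.2%), against 45.2% of the others, and the median coding length was 885 bases against 1236. Within levels, single isoforms were 84.6% against 73.0% under 2 CPM, 77.3% against 67.0% at 2 to 5 CPM and 60.0% against 41.6% at 5 CPM or more. The order of coding lengths turned with level, at 746 bases against 924 under 2 CPM, 1287 against 1065 at 2 to 5 CPM and 1200 against 1263 at 5 CPM or more. The coding sequence began at the first base of the predicted mRNA, with no 5′ untranslated stretch annotated, in 35 (55.6%) against 13.0%. This last share was 65.4% against 45.5% under 2 CPM, 63.6% against 31.1% at 2 to 5 CPM and 26.7% against 9.43% at 5 CPM or more. The genes of the converse choice were alike in this, with 56.8% and a median coding length of 735 bases. Identifiers that do not end in 0 made up 36.5% of the 63 (23 genes) against 9.51% of the other genes detected in every ‘Alta’ library. They made up 41.6% of the genes of the converse choice and 28.2% of all 34006 genes. These shares were not split by level.

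Of the 15 genes with more than 1 isoform, 7 had 90% or more of their ‘Alta’ counts in a single isoform. The largest difference in isoform share between tissues was in FvH4_4g29541, where isoform t2 took 47.4% of the counts in ‘Alta’ crowns (48.0% without the third 42 d library) against 32.3% in leaves. These shares pool both times, and single libraries varied widely. In leaves t2 had 15, 0 and 17 counts at 42 d (55.2% of the gene's counts) against 0 in each library at 0 h. Within crowns the share of t2 was 72.1% at 42 d (75.8% without the third library) against 28.7% at 0 h. The t2 counts were 45, 80 and 4 in crowns at 42 d against 15, 34 and 19 at 0 h, and the counts of t3 were 0, 7 and 0 at 42 d against 59, 40 and 50 at 0 h. The t3 counts of the times did not overlap, with the third crown 42 d library among the libraries at 0. In FvH4_2g20842, t1 took 35.7% in crowns (38.1% without that library) against 22.7% in leaves. Its share in single libraries ran from 0% to 62.5% in crowns and from 0% to 78.3% in leaves. In FvH4_4g12550, t3 took 69.4% in crowns (67.5% without that library) against 80.5% in leaves. Its share in single libraries ran from 60.4% to 91.0% in crowns and from 73.4% to 100% in leaves. RSEM divides reads shared by isoforms by estimation, so these shares carry more error than the counts show. No isoform of the 63 genes exceeded 3 counts in an ‘NCGR1363’ library. This follows from the limit on the gene counts, which the isoform counts divide, and is no separate result.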

How the data were processed

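RNASeq counts were analysed for 24 libraries of crowns and leaves. Reads (paired-end, 150 bp, strand-specific library) had been trimmed with TrimGalore and mapped to the predicted mRNAs of the F. vesca v4.0.a2 annotation with RSEM and Bowtie2, whose versions and use of strand are not given in the sources used here. The authors deposited expected counts per gene and per isoform. All of them were whole numbers, so rounding changed none. Reads shared with near-identical copies or overlapping genes may have been divided between them.

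Levels are CPM scaled by TMM factors of all 24 libraries. Tests used edgeR 4.0.16 in R 4.3.3 (quasi-likelihood F-test, TMM, genes kept at 0.5 CPM or more in 2 or more libraries, Benjamini-Hochberg FDR of at most 0.05 over all genes tested), with 1 fit per pair of ‘Alta’ groups and 1 over the 12 ‘Alta’ libraries for the difference between cold responses. The procedure was tested on simulated data. Alternatives were DESeq2 1.42.0, DESeq2 size factors, other filters, a fit over all ‘Alta’ libraries, a replicate block and leaving out each library. Fits on the other 11 ‘Alta’ libraries and the shares of calls among other genes detected in every ‘Alta’ library were chosen after seeing the data.

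The 63 genes and the lists were chosen with earlier results of these data known. Genes are named where they lie in the annotated interval, have the 10 highest mean CPM, have the 4 largest called differences in a direction, lie at the limits of the choice or have 1 of the 3 largest isoform shifts. The genes named for crown fits without 1 library, and the adjacent pairs, were chosen after their values were seen. Of the 34006 gene identifiers, 0 matched the RefSeq table, and no sequence is printed.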

Additional observations from a re-analysis of the deposited data

Results flagged for a closer look

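The response of FvH4_1g14150 to cold treatment was called as different between the tissues of ‘Alta’, but the call was lost in 5 of 12 fits with 1 library left out. The difference of the log2 responses, crown minus leaf, was -2.34 (SE 0.49, edgeR FDR 0.0196), from -0.60 in crowns (SE 0.36, edgeR FDR 0.328) and 1.76 in leaves (SE 0.38, edgeR FDR 0.005). These values include the third crown 42 d library, and without it the difference was -2.16.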

How the results depend on the processing

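The choice of limits set the number of genes. It was 26 with 0 counts required in ‘NCGR1363’, 40 with a limit on CPM and 63 to 66 with 1 library left out, and for the converse choice 53 with 0 counts required and up to 129 with 1 library left out. With DESeq2 in place of edgeR, 7 genes were called for cold treatment in crowns, 15 for cold treatment in leaves, 4 between crown and leaf at 42 d and 3 for the difference of cold responses. Over all genes tested, DESeq2 called 4442 of 19104, 10199 of 18435, 2227 of 18756 and 4121 of 19892 in these. A fit over all 12 ‘Alta’ libraries called 6, 11, 16 and 7 genes for cold treatment in crowns, cold treatment in leaves, crown against leaf at 0 h and crown against leaf at 42 d. Of all 19892 genes tested, that fit called 4885, 4705, 9118 and 2931. On the other 11 ‘Alta’ libraries, a fit called 22 for cold treatment in crowns and 26 for crown against leaf at 42 d, beside 10631 and 10896 of all 19863 genes tested. Leaving out 1 library at a time gave 0 to 24, 12 to 17, 27 to 34, 0 to 21 and 0 to 5 calls for cold treatment in crowns, cold treatment in leaves, crown against leaf at 0 h, crown against leaf at 42 d and the difference of responses, and the 24 and 21 came without crown 42 d replicate 3. For the difference of responses, 2 genes were called without crown 42 d replicate 1 and 5 without replicate 2. Shares over all genes with 1 library left out are given above only for crown 42 d replicate 3.

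Directions turned in 3 genes without crown 42 d replicate 3 and on the other 11 libraries. Cold treatment in crowns then gave -3.54 for FvH4_1g23390 and -0.97 for FvH4_3g00831, and crown against leaf at 42 d gave -2.03 for FvH4_7g31300, all on the log2 scale. Over all single libraries left out, these 3 differences spanned -3.54 to 0.94, -0.97 to 0.50 and -2.03 to 0.70. Of 980 values for single genes, 837 kept their direction and side of the threshold, 54 lost the call, 83 gained it and 6 turned.

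Same-numbered libraries did not deviate together (r from -0.22 to 0.25 over 17733 genes). With the replicate number as a block, the calls were 0, 16, 29, 0 and 1 in the same order of comparisons. Over all genes tested they were 0 of 19104, 9964 of 18435, 13354 of 19310, 0 of 18756 and 1149 of 19892. With 3 libraries in a group, a difference that missed the threshold is not shown to be absent.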
